A study of Mus musculus with 34 samples.

Results

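Genes known from retinal progenitors and photoreceptors were followed in arrays of the mouse cornea. The set held 8 genes, Neurod4, Otx2, Fabp7, Crx, Rlbp1, Gnat1, Pdc and Sag, out of 19938 genes that had a probe set with exactly 1 gene symbol. They were chosen by measured intensities of these same arrays, some as high at P3 and others as high on single adult arrays, so their values at P3 and on single adult arrays are a description, with no test. Each of the 8 had 1 probe set. All 8 passed the filter on low values, an intensity above the array's median on 2 or more of the 32 arrays of whole cornea, as did 12998 genes in all.

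The retina forms from dividing progenitors that leave the cell cycle and become ganglion cells, amacrine and horizontal cells, cones, rods, bipolar cells and Müller glia. Rod and cone precursors first switch on transcription factors such as Otx2, Crx and Neurod1, and later the proteins of the light response. In a rod, the light response runs through the G protein transducin, arrestin ends it, and phosducin holds the beta and gamma subunits of transducin. The cornea is the clear tissue at the front of the eye and contains none of these retinal cell layers.

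All mice were wild-type (genotype wildtype) and of the CB6 strain, and per the labels corneas were dissected away from the rest of the globe. Whole cornea was measured at 12 ages. E14.5, E15.5 and E17.5 (embryonic days), P3, P7, P14 and P28 (postnatal days) and 2 months had 3 arrays each, and 6 months, 1 year, 18 months and 2 years had 2 each. A further array held corneal epithelium of P28, lifted off with dispase, and another held corneal stroma of P7, cut by laser capture from eye sections. Whether the arrays of an age hold separate animals is not given in the labels, and p-values below measure the spread between arrays, which may be technical.

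Each value is the deposited PLIER intensity of a probe set on a linear scale, and differences are between means of log2(intensity + 16). Intensities depend on the probes, so no gene's level is set against another's. The median intensity was 188.2 to 240.6 on the whole-cornea arrays and 318 to 321 on the layer arrays, which also had a higher floor. Arrays of an age correlated with r of 0.879 to 0.985 over the genes tested. A group of 8 unnamed probe sets was picked for separating the arrays up to P14 from those from P28 on. They read at least 1501 on each of the 18 earlier arrays and at most 12.8 on each of the 14 later ones. Between P14 and P28 age and array set therefore cannot be told apart. No count of such probe sets at other boundaries is given. Of the corneal markers, Krt12 (a keratin of the corneal epithelium) read 5329, 8500.2 and 8654 at E15.5, against 55.6, 62.8 and 48.2 at E14.5, while Kera (a keratan sulfate proteoglycan of the stroma) read 5269.9, 6805 and 7823 at P3.

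Otx2 and Crx proteins are both known to bind the letters TAATCC, and the promoter windows of the members that hold these letters are shown, with that of Pdc as a window without them. RefSeq (GRCm38.p6) gave 11 windows of 300 bases for 7 of the 8 genes, each from 250 bases before to 50 bases after an annotated start. No window was given for Gnat1. Capitals mark TAATCC or its reverse complement GGATTA, which were searched on both strands. The windows, on the strand of the gene, were Crx chr7:15879906-15880205 (minus strand), 1 of the 4 Otx2 windows, chr14:48665060-48665359 (minus strand), Sag chr1:87803430-87803729 (plus strand) and Pdc chr1:150319167-150319466 (plus strand). The Otx2 and Sag windows lie at alternative starts inside the annotated gene (chr14:48656781-48667644 and chr1:87798143-87845158), and those of Crx and Pdc at its outer end.
Crx: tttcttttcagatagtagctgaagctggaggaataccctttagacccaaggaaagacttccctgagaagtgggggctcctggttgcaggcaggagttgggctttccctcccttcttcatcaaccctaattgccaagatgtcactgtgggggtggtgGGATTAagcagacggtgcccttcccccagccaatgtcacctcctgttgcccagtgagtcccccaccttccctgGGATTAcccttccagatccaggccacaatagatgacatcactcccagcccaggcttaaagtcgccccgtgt
Otx2: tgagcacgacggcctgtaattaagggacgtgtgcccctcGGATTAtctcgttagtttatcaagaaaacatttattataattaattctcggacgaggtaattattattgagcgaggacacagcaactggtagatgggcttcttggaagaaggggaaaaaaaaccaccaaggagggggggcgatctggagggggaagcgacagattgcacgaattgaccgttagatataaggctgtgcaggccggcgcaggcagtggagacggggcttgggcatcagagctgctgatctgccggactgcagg
Sag: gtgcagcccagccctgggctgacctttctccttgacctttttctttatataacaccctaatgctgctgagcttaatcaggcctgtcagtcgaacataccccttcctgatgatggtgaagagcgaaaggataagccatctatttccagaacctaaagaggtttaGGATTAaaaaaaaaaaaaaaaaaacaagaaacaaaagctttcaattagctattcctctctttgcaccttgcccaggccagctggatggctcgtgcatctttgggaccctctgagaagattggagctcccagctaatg
Pdc: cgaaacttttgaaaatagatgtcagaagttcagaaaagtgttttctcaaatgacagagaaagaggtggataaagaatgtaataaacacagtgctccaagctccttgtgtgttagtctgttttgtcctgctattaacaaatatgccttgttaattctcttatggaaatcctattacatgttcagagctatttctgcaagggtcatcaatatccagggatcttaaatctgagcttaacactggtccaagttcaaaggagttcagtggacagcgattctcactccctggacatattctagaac
The letters occurred 2 times in the Crx window, 1 time in this Otx2 window and 1 time in the Sag window, and were not in the Pdc window. In all, 3 of the 11 windows held a match, and the other windows of Neurod4, Otx2, Fabp7 and Rlbp1, which are not shown, held none. Of the 32851 windows of the table, 7.06% held one. A match is a run of letters and not a measured binding site.

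Neurod4, a neurogenic transcription factor of the basic helix-loop-helix family, was highest at P3 and low again at P7. It read 1205, 2239 and 5242 on replicates 1 to 3 of P3. At E17.5 it read 901, 426 and 115, and at P7 61.6, 91.1 and 145. Every P3 array was above every array of both neighbouring ages. Before that, Neurod4 read 125, 90.9 and 1407 at E14.5 and 137, 90.9 and 61.9 at E15.5, so that replicate 3 of E14.5 exceeded the lowest P3 array. After P7 the gene averaged 247 ± 189 at P14 (SD, n = 3), with 461 on replicate 2, and the 14 arrays of P28 to 2 years lay between 67.7 and 288. In the order of age means P3 was followed by E14.5 (541 ± 750.1) and E17.5 (481 ± 395, both SD, n = 3), whose arrays overlapped.

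Otx2, a homeodomain factor required for photoreceptor fate and also expressed in the pigment epithelium, followed a similar course with a broader embryonic part. It read 1191, 2033 and 3531 at P3, against 1513, 813 and 925 at E17.5, and the ranges of the 2 ages overlapped. At P7 it read 84.3, 211 and 157, below every P3 array. At E14.5 it read 580.4, 401 and 1235 and at E15.5 588, 90.8 and 58.0, where replicate 1 stood alone. The highest later age means were those of 6 months (562 ± 428, SD, n = 2), P14 (453 ± 376, SD, n = 3) and 2 months (367 ± 161, SD, n = 3), and their arrays overlapped. The lowest age mean was that of 18 months, with arrays at 96.7 and 96.6. P28 (132 ± 66.3, SD, n = 3), 1 year (121 ± 46.5) and 2 years (213 ± 34.4, SD, n = 2 each) lay between.

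Fabp7, the brain-type fatty acid-binding protein of radial glia and neural progenitors, was highest at E14.5, E17.5 and P3. It read 1785, 1694 and 2029 at E14.5, 862, 590.4 and 691 at E15.5 and 3309.6, 1949 and 1228 at E17.5. It then read 2826, 3127 and 9264 at P3 and 333, 575 and 201 at P7. The P3 arrays lay above all P7 arrays, but replicates 1 and 2 of P3 lay below replicate 1 of E17.5. At P14 it averaged 709 ± 164 (SD, n = 3), and on the 14 arrays of P28 to 2 years it stayed between 55.7 and 368, with the lowest mean at 18 months (65.0 ± 13.2, SD, n = 2). Fabp7 is also known from Schwann cell precursors. The Schwann cell list, of which 9 genes had a probe set, summed to 1847 to 2015 at P3, against 1549 to 1973 at E17.5, and none of its 6 tested genes was called at P3 against E17.5 or P7 against P3. A Schwann cell part in the Fabp7 values was not tested.

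Crx, the cone-rod homeobox factor that acts downstream of Otx2 in photoreceptor precursors, read 217, 393 and 958 at P3. It read 165, 121 and 116 at E17.5 and 141, 137 and 150.2 at P7, so the P3 arrays were above both neighbours. Outside P3 it was highest on 2 single arrays, 562 on replicate 1 of 6 months and 512 on replicate 2 of P14. The lowest P3 array lay below replicate 3 of E14.5 (234). The age means of E14.5, E15.5, E17.5, P7, P28, 2 months, 1 year, 18 months and 2 years all lay between 120.2 and 193, and ages next to each other in the order of means overlapped.

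Rlbp1 encodes the retinaldehyde-binding protein of Müller glia and the pigment epithelium, and it varied less over the 32 arrays, in fold, than the other 7. It read 86.3 to 319, with 206, 234 and 319 at P3, 291, 196 and 266 at E17.5 and 86.3, 109 and 106 at P7. The P3 and E17.5 arrays overlapped, and both ages lay above P7. At 2 months it averaged 183 ± 50.2 (SD, n = 3), and the other later ages averaged 105 to 136.

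**Figure D1:**
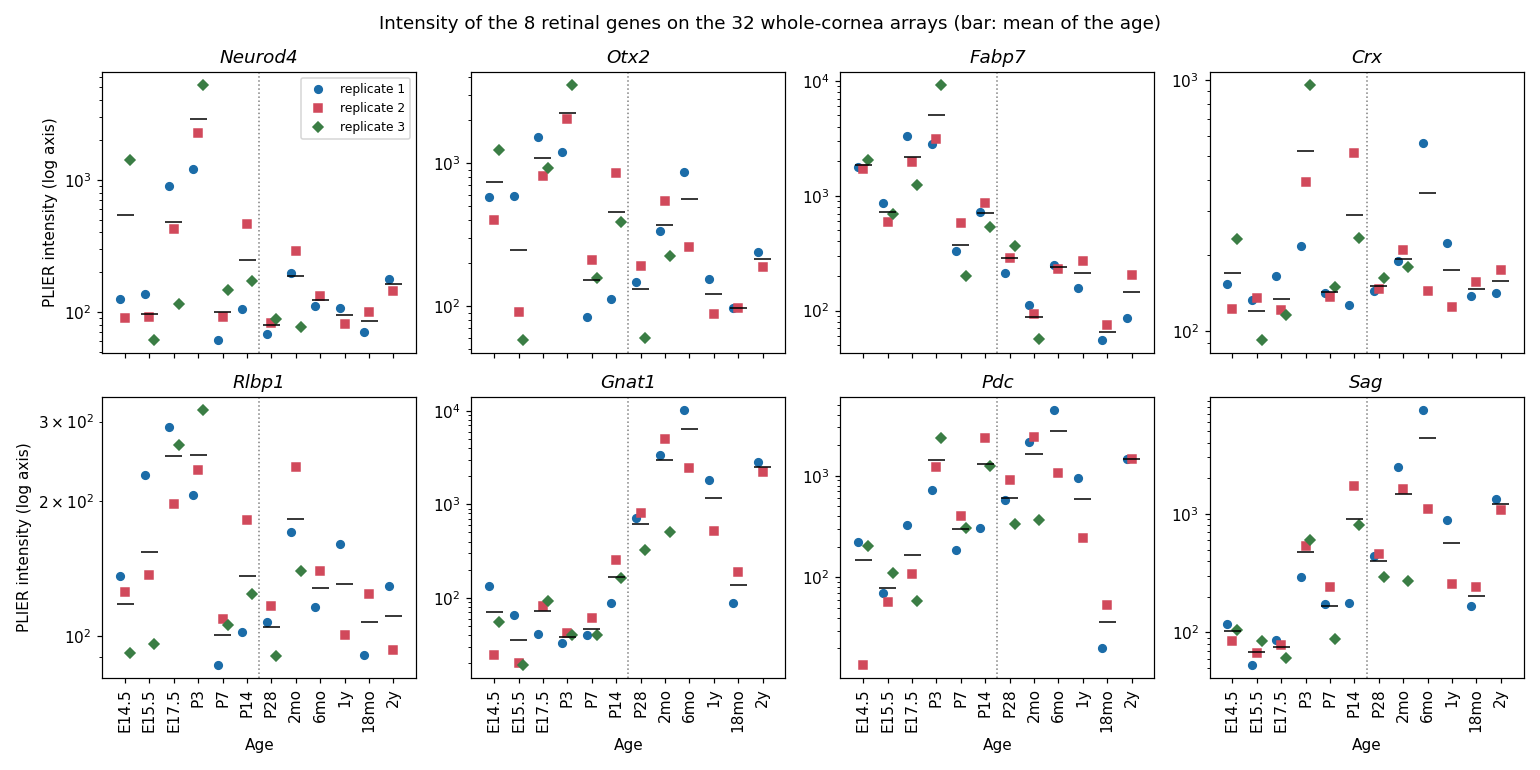
PLIER intensity of the 8 genes on each of the 32 whole-cornea arrays (log axis), by age, with a bar at each age mean and a dotted line between the 2 array sets. Neurod4 reached 5242 on replicate 3 of P3 and 288 at most from P28 on, while Gnat1 reached 10304.5 on replicate 1 of 6 months and 254 at most up to P14.

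Gnat1 encodes the alpha subunit of rod transducin, and it was low up to P7 and high on most arrays from P28 on. On the arrays of E14.5, E15.5 and E17.5 it read 19.2 to 133. It read 33.2, 42.2 and 40.2 at P3, 39.7, 60.6 and 40.3 at P7 and 88.6, 254 and 161 at P14. It read 714, 800.1 and 323 at P28, 3403, 4959 and 511 at 2 months and 10304.5 and 2431 at 6 months. The arrays of 6 months and of 2 months overlapped, and replicate 3 of 2 months lay within the range of P28. It read 1827 and 518 at 1 year, 87.6 and 188 at 18 months and 2846 and 2192 at 2 years. The 18-month arrays were close to the P14 range and below every other array of P28 and later, and the 2-year arrays overlapped those of 2 and 6 months. Of the 14 arrays of P28 and later, 12 exceeded every array of E14.5 to P14, and the 2 that did not were those of 18 months. This contrast runs along the array set boundary, so age and array set cannot be told apart in it.

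Pdc, phosducin, was high at P3 as well as on adult arrays. It read 224, 13.8 and 203 at E14.5 and 69.6, 57.0 and 109.6 at E15.5. It read 330.2, 107 and 57.9 at E17.5, 721, 1211 and 2345 at P3 and 184, 401 and 305 at P7. Each P3 array was above the arrays of both neighbours. At P14 it read 308, 2369.8 and 1249.9, so that replicate 2 was level with the highest P3 array while replicate 1 stayed in the P7 range. From P28 on it read 583, 905 and 332 at P28, 2143, 2424 and 364 at 2 months and 4473 and 1053 at 6 months. It then read 943 and 244 at 1 year, 20.4 and 53.1 at 18 months and 1452 and 1445 at 2 years. The 18-month arrays were the lowest of the 14 later arrays, at the 1.04 and 4.73 percentile of all genes on those arrays, whereas the 2-year arrays stood at the 91.3 and 90.8 percentile. Means of 2 months, 2 years, P3 and P14 lay next to each other in the order, with 1644 ± 1117 at 2 months and 1309 ± 1032 at P14 (SD, n = 3 each), and their arrays overlapped.

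Sag, the rod arrestin, was also high both at P3 and on adult arrays. At E14.5 and E15.5 it read 53.1 to 117. It read 86.4, 78.6 and 60.5 at E17.5, 294, 536 and 602 at P3 and 173, 239 and 87.4 at P7. The P3 arrays did not overlap either neighbour. It read 177, 1733 and 802 at P14, 441, 460.1 and 293 at P28, 2495, 1622 and 270.2 at 2 months and 7598 and 1095 at 6 months. The arrays of P14, 2 months and 6 months overlapped. At 1 year it read 889 and 253, at 18 months 168 and 239 and at 2 years 1332 and 1085. As for Gnat1 and Pdc, the 2-year arrays were both above the 18-month arrays. These are bulk arrays, so fewer cells of a type and less RNA per cell cannot be told apart.

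At P3 the members differed in how they stood to E17.5. The difference of log2 means, P3 minus E17.5, was 3.13 for Pdc, 2.70 for Neurod4, 2.39 for Sag, 1.61 for Crx, 1.12 for Fabp7 and 0.96 for Otx2. It was 0.01 for Rlbp1 and -0.64 for Gnat1. For P7 minus P3 it was -4.47 for Neurod4, -3.70 for Otx2, -3.62 for Fabp7, -2.10 for Pdc, -1.51 for Crx, -1.47 for Sag, -1.19 for Rlbp1 and 0.19 for Gnat1. The rod genes thus split at P3: Pdc and Sag were higher than at E17.5, and Gnat1 was not. Over all 12998 genes the median difference was -0.03 for P3 minus E17.5 and 0.06 for P7 minus P3. With limma, 1.89% of all genes were called for P3 against E17.5 (adjusted p under 0.05 together with a log2 difference of 1 or more in size) and 1.98% for P7 against P3. Since these steps chose the members, no test is given for them.

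None of the 8 had all 3 P3 arrays above the other 15 arrays of E14.5 to P14, which was the case for 90 genes, 0.692% of all. Replicate 3 of E14.5 exceeded the lowest P3 array for Neurod4, Otx2 and Crx, and replicate 1 of E17.5 did so for Otx2 and Fabp7. Replicates 2 and 3 of P14 did so for Crx, Pdc and Sag. For Rlbp1, replicates 1 and 3 of E17.5 and replicate 1 of E15.5 did so, and for Gnat1 most of the other 15 arrays did. Within P3, replicate 3 was the highest array and replicate 1 the lowest for 7 of the 8 genes, and Gnat1 (33.2 to 42.2) was the exception. Replicate 3 was also the P3 array with the highest sums of the pigment epithelium list (11038, against 6700 and 8112 on replicates 1 and 2) and of the lens list (11146, against 6274 and 6455). It likewise had the highest sum of the muscle list (4320, against 2298 and 2461). The part of these tissues in the values of the 8 genes was not tested.

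The progenitor name was borne out only in part at P3. Sox2, Fgf15 and Six6, which mark dividing retinal progenitors and were picked from the list with their values in view, were not above their E17.5 range at P3. Sox2 read 149.9, 164 and 259.6 at P3, against 209, 261 and 169 at E17.5, and Six6 read 129, 119 and 103 at P3, against 752, 113 and 136 at E17.5. Fgf15 read 326, 354 and 359 at P3, against 416, 494 and 358 at E17.5. On replicate 3 of E14.5 Sox2 read 17245, Fgf15 8698 and Six6 4345. Neurod1, a neurogenic factor also kept by photoreceptor precursors, read 564, 1380.2 and 3728 at P3, against 758, 253 and 137 at E17.5. Other genes of the list differed from these. Neurog2, a neurogenic factor of the basic helix-loop-helix family, read 279, 251 and 226 at P3, against 188, 204 and 159 at E17.5, and was the 1 gene of the 19 tested with all 3 P3 arrays above the other 15 arrays of E14.5 to P14. Its difference of 0.43 (SE 0.143, limma adjusted p = 0.0492) was too small to be called. Prdm1, a repressor that stabilises photoreceptor fate, read 325, 513 and 829 at P3, against 343, 228 and 105 at E17.5, so that the ages overlapped, and was not called (1.28, SE 0.574, limma adjusted p = 0.139). Neurod4, Otx2 and Fabp7 at P3 are therefore named here by the genes themselves.

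**Figure D2:**
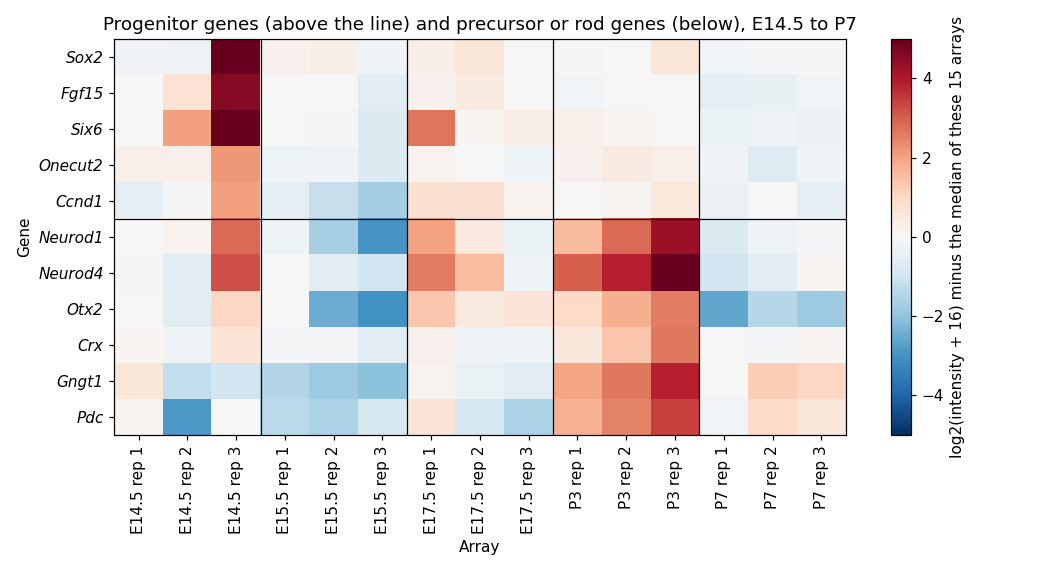
Log2(intensity + 16) of 5 progenitor genes (above the line) and 6 precursor or rod genes (below it) on the 15 arrays of E14.5 to P7, relative to each gene's median over these arrays, red for higher and blue for lower. The genes were picked with their values in view. Neurod1, below the line, is also on the progenitor and neurogenic list, and Neurog2 and Prdm1 of that list are not shown. Sox2 is high on replicate 3 of E14.5 (17245) and not at P3 (260 at most), while Neurod4 is high on all 3 P3 arrays (1205 to 5242).

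Other genes of the same pathways, from lists of retinal genes, seldom passed the test at these steps. Of 19 tested progenitor and neurogenic genes none was called higher at P3 than at E17.5 and 1 was called lower, Sfrp2 (log2 difference -1.72, SE 0.459, limma adjusted p = 0.0175), a secreted Wnt antagonist. Over all genes 1.11% were called lower, and the list's median was 0.08. Of 27 tested rod and cone genes 2 were called higher, against 0.785% of all genes called higher, and the list's median was 0.58. They were Gngt1, the gamma subunit of rod transducin (3.08, SE 0.743, limma adjusted p = 0.00961), and Rp1, a microtubule protein of the outer segment (2.19, SE 0.679, limma adjusted p = 0.0365). Gngt1 read 594, 967 and 2322 at P3, against 160.1, 109 and 88.8 at E17.5. Neither stayed called without replicate 3 of P3, or without replicates 1 and 3 of E17.5, which were rich in muscle genes. As many as 8 of the 10 muscle genes were called lower at P3 than at E17.5, and the muscle list summed to 2298 to 4320 at P3, against 3882 to 48354 at E17.5.

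At P7 against P3, 3 of the 19 progenitor and neurogenic genes were called lower and none higher, against 0.639% of all genes called lower. Neurod1 fell by 3.26 (SE 0.833, limma adjusted p = 0.0144), Prdm1 fell by 2.34 (SE 0.574, limma adjusted p = 0.011), and Sfrp2 fell by 1.44 (SE 0.459, limma adjusted p = 0.0446). None of the 3 stayed called without replicate 3 of P3 or without replicate 1 of P7. Of the 27 rod and cone genes, Gngt2, the cone transducin gamma subunit, was called lower (-2.79, SE 0.789, limma adjusted p = 0.0254). Guca1a, which encodes a guanylate cyclase activator (1.31, SE 0.295, limma adjusted p = 0.0066), and Prom1 (1.03, SE 0.196, limma adjusted p = 0.00197) were called higher, against 1.35% of all genes called higher. At 6 months, where 17 of the 27 genes were at least 4-fold apart between the arrays, Guca1a read 3695 to 5124 and Prom1 1411 to 1566. Prdm1 read 811 to 825 at 6 months, against 325 to 829 at P3. Whether these 3 genes were read from photoreceptors was not tested. The medians were -0.30 for the progenitor list and -0.48 for the photoreceptor list.

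Pigment epithelium genes were also lower at P7 than at P3. Of 11 tested, 6 were called lower, among them Dct (-3.27, SE 0.671, limma adjusted p = 0.00354) and Tyrp1 (-2.10, SE 0.475, limma adjusted p = 0.00661), both enzymes of melanin synthesis, which pigment cells of the iris also make. The list summed to 2415 to 3844 at P7, against 6700 to 11038 at P3, and 3 of the 11 were called without replicate 3 of P3 or without replicate 1 of P7. At E17.5 the list summed to 9956 to 17388, more than on 2 of the 3 P3 arrays, and none of its genes was called at P3 against E17.5. Rpe65, the retinoid isomerase specific to the pigment epithelium, read 25.4, 54.3 and 49.7 at P3. Among genes of the ganglion cell and axon list, Nefl (-3.28, SE 0.821, limma adjusted p = 0.0123) and Thy1 (-1.62, SE 0.415, limma adjusted p = 0.0147) were called lower at P7, 2 of 7 tested. Thy1 read 309 to 2196 at P3, with replicate 1 at least 4-fold above the mean of the other P3 arrays. No Müller glia (9 tested), bipolar (5), amacrine and horizontal (4) or lens gene (18) was called at either P3 step. No gene of these lists read under 1 on any array, so no marker was at 0. Their part in the members' values was not tested.

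The steps that the choice of members did not use were tested across all genes. At E15.5 against E14.5, 10.4% of all genes were called, 3.1% as lower. Fabp7 fell by 1.35 (SE 0.407, limma adjusted p = 0.0116), and the arrays of the 2 ages did not overlap. Otx2 fell by 2.01 (SE 0.676, limma adjusted p = 0.0229). The Otx2 call was lost without replicate 3 of E14.5 (limma adjusted p = 0.112), without replicate 2 of E15.5 (0.0940) or replicate 3 of E15.5 (0.157), and with only the 2 ages in the fit (0.108). Neurod4 differed by -1.36 (SE 0.737, limma adjusted p = 0.152) and was not called. The other 5 members differed by -0.68 to 0.29, with limma adjusted p-values of 0.388 to 0.779.

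At this step 5 of the 19 progenitor genes were called lower, against none of the 27 rod and cone genes. They were Six6, Neurod1, Fgf15, Onecut2 and Ccnd1, with differences of -2.64 to -1.26. All 5 read highest at E14.5 on replicate 3. The lens list, of which 13 of 18 tested genes were called lower, summed to 3375 to 3615 at E15.5, against 8604 to 112803 at E14.5. The corneal list moved the opposite way, with 8 of 10 tested genes called higher at E15.5 (median 3.12), against 7.35% of all genes called higher. It summed to 43318 to 56366 at E15.5, against 5116 to 9966 at E14.5. Whether the share of retinal, lens or corneal tissue on the arrays of either age has a part in the members' differences was not tested.

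At E17.5 against E15.5, 0.569% of all genes were called and no member. The differences were 2.66 for Otx2 (SE 0.676, limma adjusted p = 0.0579), 1.80 for Neurod4 (SE 0.737, limma adjusted p = 0.235), 1.48 for Fabp7 (SE 0.407, limma adjusted p = 0.073) and 0.71 for Rlbp1 (SE 0.251, limma adjusted p = 0.167). Without replicate 1 of E15.5, the array on which Otx2 stood alone, Otx2 passed (3.58, limma adjusted p = 0.00269), as did Fabp7 (1.62, 0.0403) and Rlbp1 (1.01, 0.0183), and 311 genes were called in place of 74. That array was the highest of E15.5 for each of these members, so leaving it out enlarges their differences by construction. Leaving out 1 array at a time gave 2 to 311 called genes. At P14 against P7, limma called 0% of all genes, with 819 at an unadjusted p under 0.05. Sag differed by 1.93 (SE 0.714, limma adjusted p = 0.66), Pdc by 1.73 (SE 0.832, limma adjusted p = 0.779) and Gnat1 by 1.46 (SE 0.66, limma adjusted p = 0.749). All 8 differences were positive at this step, against a median of -0.02 over all genes, and none passed. Replicate 2 was the highest P14 array for all 8 genes, so their shared direction is not 8 separate observations.

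Each of the 32 arrays was set against the mean of the other arrays of its age, as a description with no replicate. Among the 256 pairs of a member and an array, 6 lay at least 4-fold above. Of the 6, 3 were on replicate 1 of 6 months: Sag by 2.78, Gnat1 by 2.08 and Pdc by 2.07 log2 units, where 0.331% of all genes were as far above. Sag, Gnat1 and Pdc stood at the 99.6, 99.9 and 98.7 percentile of all genes on that array. Crx (562 and 145) and Otx2 (864 and 259) were also higher on replicate 1 than on replicate 2 of 6 months, while Neurod4 (112 and 133) was lower and Fabp7 (250.4 and 229.6) was close. The remaining 3 pairs were Sag on replicate 2 of P14 (2.14, 0.169% of all genes), Neurod4 on replicate 3 of E14.5 (3.54, 0.462%) and Otx2 on replicate 1 of E15.5 (2.76, 0.423%). Replicate 3 of 2 months lay on the low side, by -2.97 for Gnat1, -2.83 for Sag and -2.59 for Pdc. Replicate 1 of P14 did so too, by -2.63 for Sag, -2.42 for Pdc and -2.21 for Otx2. Pdc (-2.94) and Neurod4 (-2.07) were as low on replicate 2 of E14.5, and Neurod4 (-2.28) on replicate 3 of E17.5. Replicate 2 of 6 months mirrors replicate 1, since that age had 2 arrays.

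Replicate 1 of 6 months carried other rod and cone genes too. Of the 27 tested, 17 were at least 4-fold above replicate 2, with a median of 2.39 log2 units, led by Rdh12, a retinol dehydrogenase of photoreceptors, at 1459.7 and 97.9 on replicates 1 and 2. Opn1sw, the short-wavelength cone opsin, read 2162 and 224, and Cnga1, the rod cyclic nucleotide-gated channel, 2918 and 366. The rod and cone list summed to 67908 on replicate 1, against 19654 on replicate 2. No gene of the Müller glia, bipolar, amacrine and horizontal, ganglion cell or pigment epithelium lists was 4-fold above, and of 19 progenitor genes only Neurod1 was. The Müller glia list summed to 10347 on replicate 1, against 11634 on replicate 2, and the pigment epithelium list to 3368, against 6318. Glul, the largest term of the Müller glia sum, averaged 4937 at 6 months and 4326 at P7, where the rod and cone list was lower. The sum therefore cannot tell whether Müller glia were present. Of the pigment epithelium list, Rpe65 read 85.5 to 337 on these 2 arrays, against 25.4 to 54.3 at P3, and Ttr read 875 to 2723. That sum does not separate these genes, so it cannot tell whether pigment epithelium was present. The lens list went the opposite way to the rod and cone list, with 6791 on replicate 1, against 59980 on replicate 2. The sum of the corneal list was 53170, against 58003. The part of these tissues in the values of Sag, Gnat1 and Pdc was not tested.

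**Figure D3:**
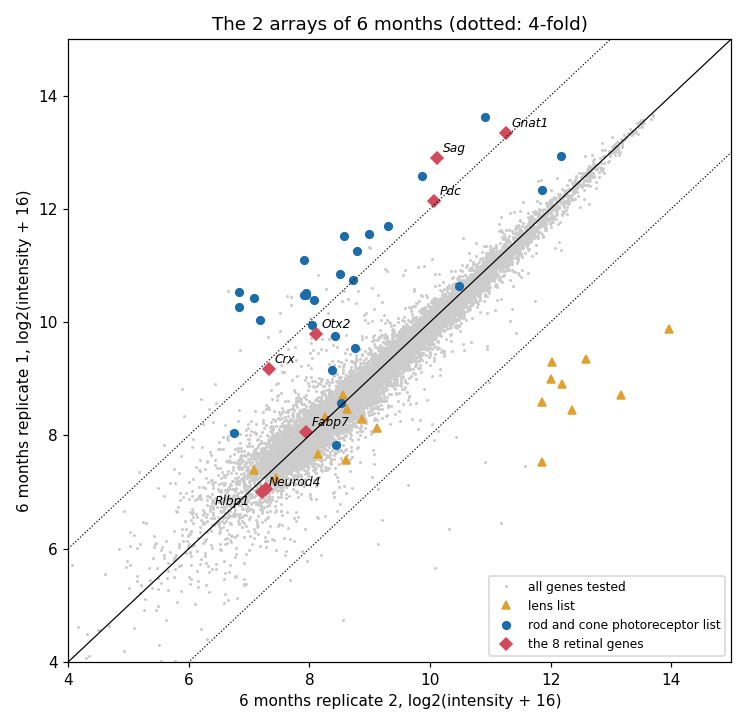
Log2(intensity + 16) of all genes tested on replicate 1 (vertical) against replicate 2 (horizontal) of 6 months, with equality as a solid line and a 4-fold difference as dotted lines. Sag, Gnat1 and Pdc (red) lie above the upper dotted line with 17 of the 27 rod and cone genes (blue), while 9 of 18 lens genes (orange) lie below the lower one.

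The other single arrays differed in their company. On replicate 2 of P14, where Sag read 1733, 4 of 27 rod and cone genes were 4-fold above the other P14 arrays, Pde6b, Rp1, Impg2 and Cnga1, and so were 11 of 18 lens genes. On replicate 3 of E14.5, where Neurod4 read 1407, 6 of 19 progenitor genes were 4-fold above, Sox2 first. So were 4 of 7 ganglion cell and axon genes and 5 of 18 lens genes. On replicate 1 of E15.5, where Otx2 read 588, 6 of 11 pigment epithelium genes were 4-fold above, led by Dct. Rod genes were thus high with lens genes on P14 replicate 2 and without them on 6 months replicate 1. The arrays of 2 months held both cases: replicates 1 and 2 had rod and cone sums of 25148 and 24408 but lens sums of 86272 and 5113.

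**Figure D4:**
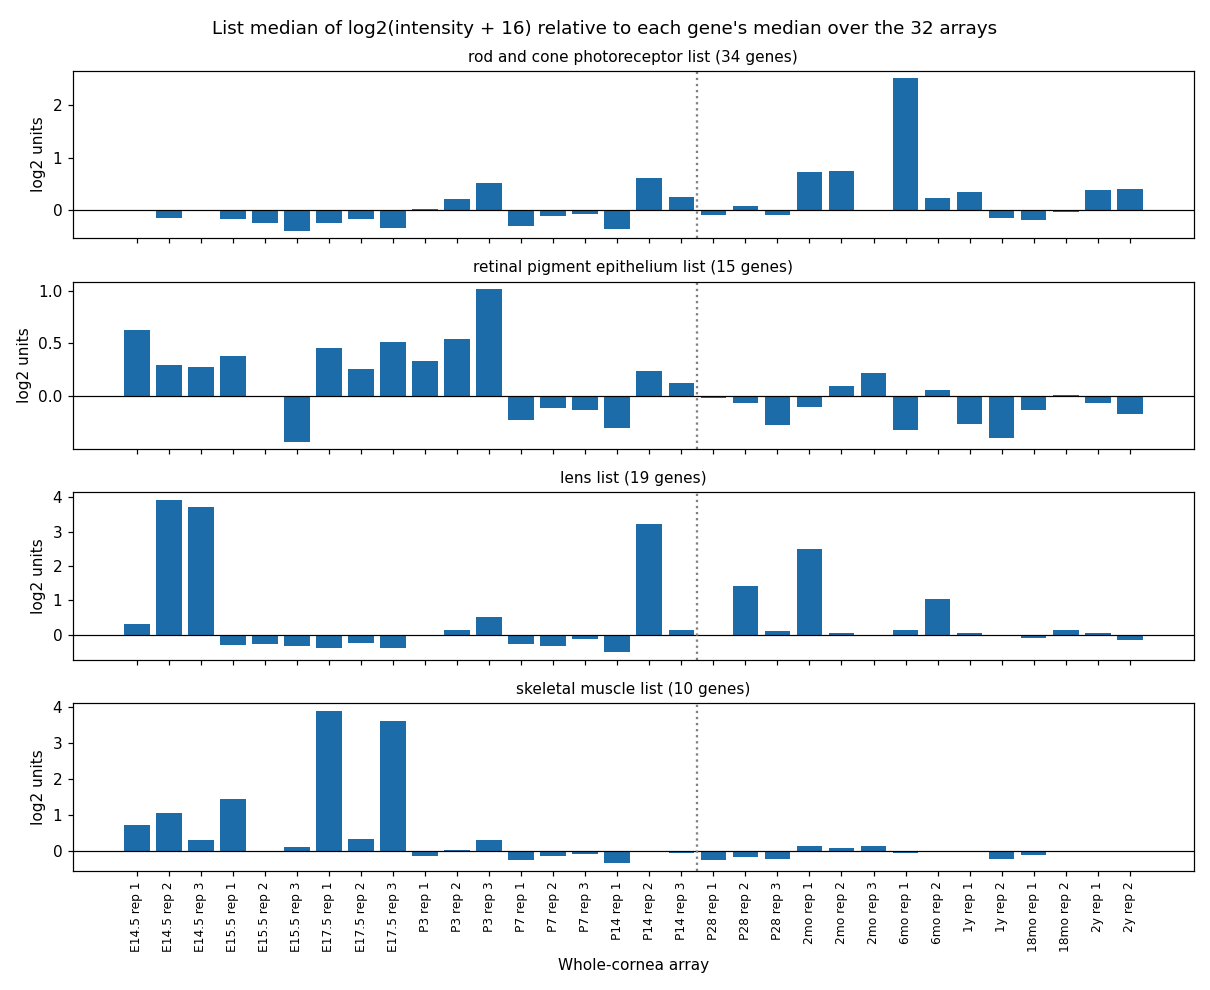
Median of log2(intensity + 16) relative to each gene's median over the 32 arrays, per array, for the rod and cone, pigment epithelium, lens and muscle lists (bars start at 0, dotted line between the array sets, and each panel has its own scale). The rod and cone list peaks on replicate 1 of 6 months, where the lens list is at 0.15, and the pigment epithelium list peaks at 1.01 on replicate 3 of P3.

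The layers had 1 array each and a higher floor, and their ages are those of the sample labels, since the design text names only a single age for both. Thus the members are given by their levels and ranks with no test. In P7 stroma, Fabp7 read 3664 (99.2 percentile of all genes on that array) and Pdc 1197 (93.3), and the other 6 members read 222 to 507. In whole cornea of P7, Fabp7 read 333, 575 and 201. In P28 epithelium, Gnat1 read 749.5 (84.4 percentile) and Sag 406 (61.1), and Fabp7 read 173 (11.3 percentile). The stroma array was also rich in lens genes, with a lens sum of 92813, against 5951 on the epithelium array, and in pigment epithelium genes (10352 against 4064).

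Across arrays the members correlated within 2 trios, and Crx and Rlbp1 correlated as highly with some genes of these trios. Over the 32 arrays, which share the age course, Pearson's r was 0.682 to 0.837 among Neurod4, Otx2 and Fabp7 and 0.641 to 0.870 among Gnat1, Pdc and Sag. Between the trios it was -0.631 to 0.358. Otx2 with Rlbp1 (0.763), Neurod4 with Crx (0.664) and Crx with Pdc (0.657) lay in the range found within the trios. Among the 14 arrays of P28 and later, Gnat1, Pdc and Sag correlated at 0.886 to 0.962, against 0.403 to 0.894 among the 18 earlier arrays. Neurod4, Otx2 and Fabp7 correlated at -0.189 to 0.604 among the 14 later arrays, against 0.802 to 0.857 among the 18 earlier ones. Between the trios r was 0.176 to 0.878 among the later arrays and -0.0929 to 0.621 among the earlier ones. The later values overlapped those within Neurod4, Otx2 and Fabp7 but stayed below those within Gnat1, Pdc and Sag. The earlier values overlapped those within Gnat1, Pdc and Sag but stayed below those within Neurod4, Otx2 and Fabp7. Crx correlated with the mean of Neurod4, Otx2 and Fabp7 at 0.577, and at 0.272 without the 2 farthest arrays, replicates 2 and 3 of P3. With the mean of Gnat1, Pdc and Sag it correlated at 0.479. Rlbp1 correlated at 0.687 with the mean of Neurod4, Otx2 and Fabp7 and at 0.0389 with that of Gnat1, Pdc and Sag. These values describe the same arrays that chose the members.

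The genes most like each trio over the 32 arrays were taken from all genes tested, leaving out unnamed transcripts. For the mean of Neurod4, Otx2 and Fabp7 they were Ckb (r = 0.902), Rorb (0.896), Cadm3 (0.894), Neurod1 (0.872), Galnt13, Pak3, Pcbp3, Gpm6a, Msi1 and Rtn1 (0.829). Rorb, a nuclear receptor, read 635, 917 and 2378 at P3 and 42.8, 124 and 119.8 at P7, but was highest on replicate 3 of E14.5 (4221). Ckb (6460), Pak3, Gpm6a, Msi1 and Rtn1 were also highest on that array. Cadm3, Galnt13 and Pcbp3 were highest on replicate 3 of P3. Without the 2 farthest arrays, replicates 2 and 3 of P3, the 10 values were 0.797 to 0.909. For the mean of Gnat1, Pdc and Sag they were Cplx4 (r = 0.965), a complexin of retinal ribbon synapses, Cnga1 (0.961), Gngt1 (0.947), Pde6g (0.943), Pde6b (0.942), Rp1, Rcvrn, Stx3, Prph2 and Rbp3 (0.831). Of these 10, 7 were on the rod and cone list. Cplx4 read 2529.8 and 496 at 6 months and 44.2 and 59.5 at 18 months. Without replicate 1 of 6 months and replicate 2 of 2 months the 10 values were 0.769 to 0.950.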

How the data were processed

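RNA was measured on 34 mouse cornea arrays. The deposited values are linear intensities, 1 for each probe set of an array. Per the submitters' processing notes, the authors used PLIER and version 1.1 of Affymetrix Expression Console. No further normalization was applied. The table held 35557 probe sets, of which 21789 had 1 symbol, 1621 several and 12147 none, with 2 missing values. For a gene the probe set with the highest mean over the 32 whole-cornea arrays was used, after the filter for differences. Intensities were taken as log2(intensity + 16) and fitted with limma 3.58.1 in R 4.3.3 (lmFit, eBayes; 1 mean per age, 32 arrays, 20 residual and 4.10 prior degrees of freedom), two-sided, with Benjamini-Hochberg adjustment over 12998 genes. In data simulated for P3 against E17.5, 96% of genes changed by 1.5 log2 units and 0.0469% of unchanged ones were called. The simulation drew independent normal noise with each gene's fitted spread, and the changed genes were picked at random. It held no array rich in another tissue, so these shares do not describe the genes reported here. Replicate numbers did not pair the arrays: deviations of same-numbered arrays correlated at -0.236 to 0.285, with 5 of 15 pairs over 0.1. The members, the lists and the comparisons were chosen with earlier results of these data known. Genes named beside the members are, per list and comparison, the called genes with the largest difference (up to 4 in each direction) and the 10 genes most like each trio, by Pearson's r, and further list genes were named after their values were seen. Alternatives were other offsets, filters, normalization, moderation, array weights, sets of arrays and the replicate number as a block. Precision is limited by having 2 or 3 arrays an age.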

Additional observations from a re-analysis of the deposited data

How the results depend on the processing

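Of the member differences at the 3 tested steps, 365 values under the alternatives kept their direction and side of the threshold, 7 changed sign, 10 passed where the reported value did not and 4, all of Otx2 at E15.5 against E14.5, no longer passed. The sign changes were of small differences, none of them called. Leaving out 1 array gave -0.015 to 0.547 for Rlbp1 and -1.31 to 0.191 for Pdc at E15.5 against E14.5, and Pdc was 0.419 with weights per array. It gave -0.0169 to 0.228 for Crx and -0.0124 to 0.259 for Sag at E17.5 against E15.5. The pigment epithelium median at P3 against E17.5 was -0.475 to 0.00194 leaving out 1 array and 0.0772 with the muscle-rich E17.5 arrays removed. Genes called over all were 246 for P3 against E17.5, but 134 with only the compared ages, 381 with weights and 418 with the muscle-rich E17.5 arrays removed (174 to 297 leaving out 1 array). They were 258 for P7 against P3 (177 to 285) and 1358 for E15.5 against E14.5 (1122 to 1546). For E17.5 against E15.5 the 74 became 0, 333 and 405 under the same 3 alternatives (2 to 311 leaving out 1 array, namely 311, 2 and 4 without replicates 1, 2 and 3 of E15.5, and 33, 178 and 22 without replicates 1, 2 and 3 of E17.5). For P14 against P7 the 0 became 1 with an offset of 1, 3 with quantile normalization and 94 with weights (0 to 7, with 7 without replicate 2 of P7). The 2 rod and cone genes called higher at P3 became 1 with an offset of 64, a stricter filter or quantile normalization, 4 with weights and 0 without the muscle-rich arrays (0 to 3 leaving out 1 array), and 0 without these and replicate 3 of P3, an alternative chosen after seeing the data. The 3 progenitor genes called lower at P7 became 0 to 3 and the 6 pigment epithelium genes 3 to 6. The 6 member and array pairs at 4-fold became 10 with an offset of 1. With the replicate number as a block, P3 against E17.5 gave 242 genes and P7 against P3 253, and no other call of the members changed. The causes were not tested, beyond the fewer arrays in some alternatives.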
